A study of Mus musculus with 6 samples.

Results

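The nuclear genes for the subunits of the oxidative phosphorylation complexes were examined in 4T1 cells treated with DMSO or P3FI-90. Members were taken by symbol: the structural subunit genes of complexes I to V (Nduf, Sdh, Uqcr, Cox and Atp5 symbols), together with Cyc1 and Cycs and without the assembly factors. This gene group was chosen with earlier results of these data known. The rule took 91 of the 22105 rows with a gene name, and 82 of these 91 members were expressed highly enough to be among the 12288 genes tested. The remaining 9 were at or near 0 and are described with complex IV and complex I.

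Oxidative phosphorylation takes place in the inner mitochondrial membrane. Complex I oxidizes NADH and complex II oxidizes succinate, and both pass electrons to ubiquinone. Complex III hands the electrons to cytochrome c, and complex IV hands them from cytochrome c to oxygen. Complexes I, III and IV pump protons across the membrane, and complex V, the ATP synthase, uses the resulting gradient to make ATP. Most subunits are encoded in the nucleus and imported, whereas a small core of complexes I, III, IV and V is encoded in mitochondrial DNA, so that both genomes contribute to each of these 4 assemblies.

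4T1 is an established line of mouse mammary carcinoma cells used as a model of triple-negative breast cancer, and P3FI-90 is an inhibitor of KDM3B, a demethylase of histone H3 lysine 9. Cells received vehicle (DMSO) or 10 µM P3FI-90, and RNA was harvested at 24 h from 3 replicates per group. Both groups are the same unmodified line, studied at a single dose and a single time. The labels do not say whether the replicates were separate cultures, so the p-values measure only the spread between these libraries, which may be technical.

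Libraries held 31327094 to 37395732 counts on named genes. Most of the transcriptome differed after treatment: 79.3% of tested genes were called between the groups by edgeR's quasi-likelihood test at a Benjamini-Hochberg adjusted p under 0.05, with 39.4% lower and 39.9% higher in P3FI-90. The members were therefore read against these shares throughout. The 20 most abundant genes held 7.98% to 8.22% of the counts in DMSO libraries and 5.19% to 5.35% in P3FI-90 libraries, and the choice of scaling mattered accordingly: the median log2 fold change of all genes was 0.01 with TMM scaling, used unless stated, and 0.23 with total counts. All 7 epithelial markers examined were detected, and their summed normalized counts were 155558 to 164307 in DMSO libraries and 67157 to 70359 in P3FI-90 libraries. The leukocyte list summed to 368 to 434 and 279 to 405, almost all of it Cd68, with Adgre1 at 0. The fibroblast and endothelial list summed to 1425 to 1470 and 997 to 1091, mostly Pdgfra, with Lum at 0, and whether these shifts in markers bear on the members was not tested. In bulk libraries, fewer copies per cell and fewer cells of a kind cannot be told apart.

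Transcripts of the oxidative phosphorylation subunits were mostly less abundant after P3FI-90. Of the 82 tested members, 64 were lower (78.0%, against 39.4% of all tested genes), 4 were higher (4.88%, against 39.9%) and 14 were not called. Scaled by total counts, 49 were lower and 16 higher, against 29.6% and 50.3% of all genes, and no member called lower turned into one called higher. Limma-voom gave 64 lower and 4 higher, against 39.7% and 40.3% of all genes, and DESeq2 gave 63 and 5, against 32.2% and 34.8%. The median log2 fold change of the members was -0.43, compared with 0.01 for all genes, a distance of -0.45. TMM, total counts, upper quartiles and DESeq2 size factors each shift all genes alike, so the choice among them cannot change this distance. It was -0.54 with no filter on low counts or with DESeq2. With a trend of the change with transcript length and GC content removed, it was -0.095. Individual values ran from -1.39 for Atp5if1 to 0.44 for Cox7a2l. All 3 P3FI-90 libraries lay below all 3 DMSO libraries for 64 members and above them for 4, where 40.2% and 41.0% of all genes showed these patterns. The decreases were moderate in size: 7 of the 82 tested members were called lower with a log2 fold change under -1, as were 10.6% of all tested genes.

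**Figure D1:**
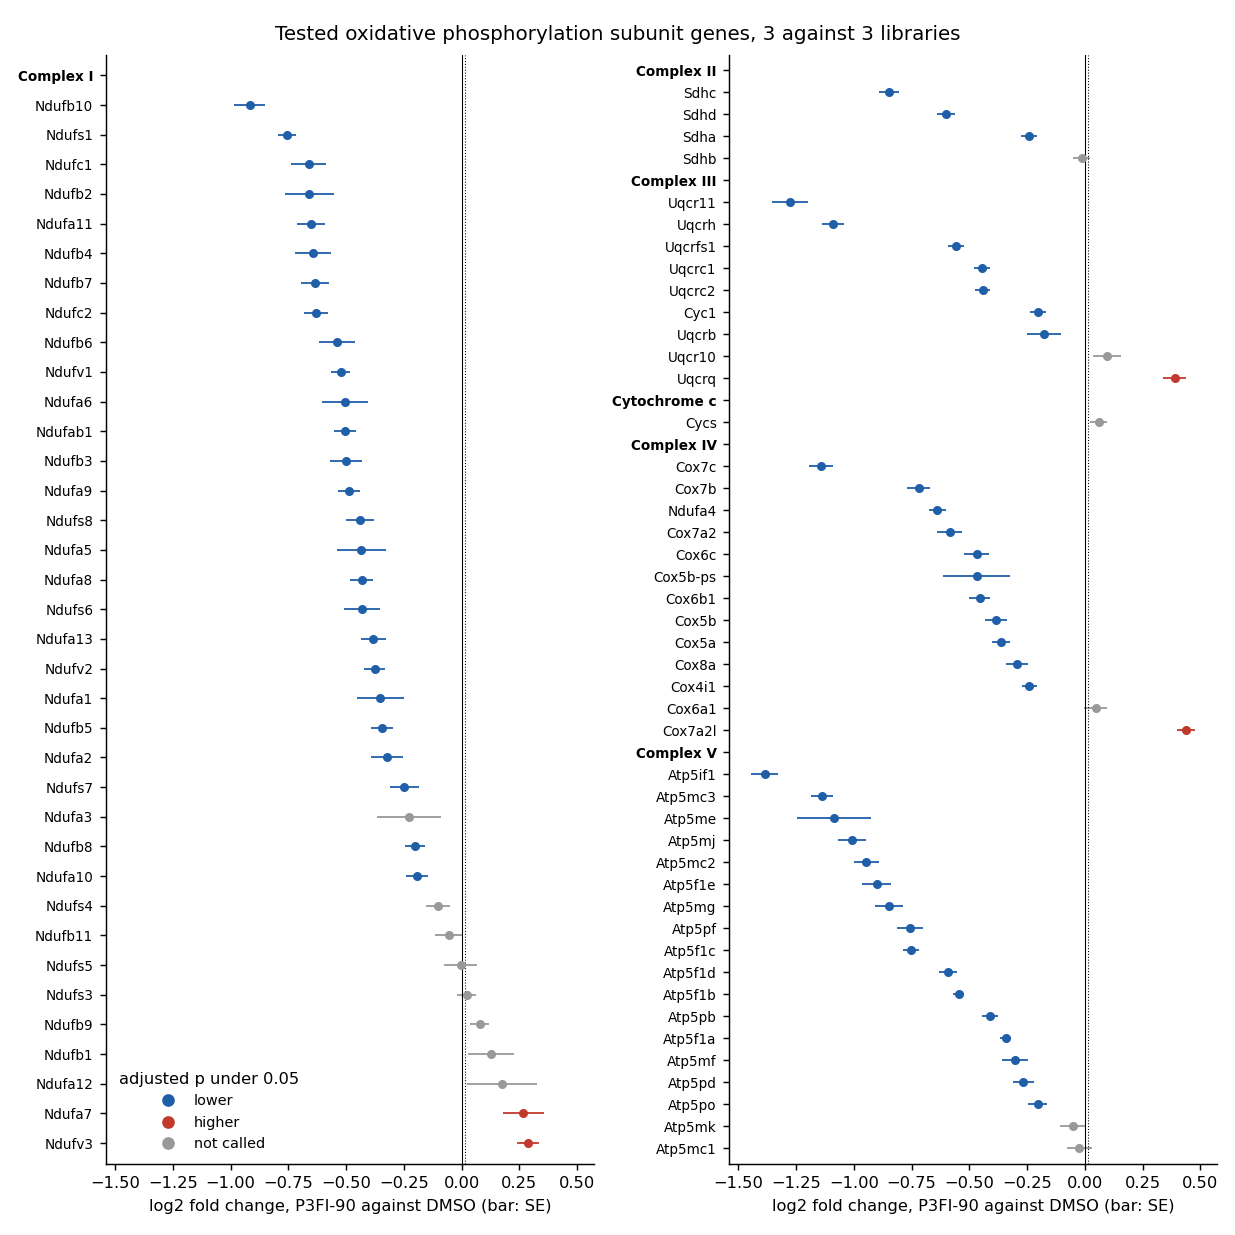
Log2 fold change of the tested subunit genes, P3FI-90 against DMSO, by complex, with bars giving the standard error of the fit on 3 against 3 libraries. The solid line marks 0 and the dotted line the median of all tested genes; most points lie to the left of both, down to -1.39 for Atp5if1, and total-count scaling moves every point to the right, which takes 11 of them past 0, among them Atp5po, Cyc1, Uqcrb, Sdhb and Atp5mc1.

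Decreases were found in every complex, and their size differed between complexes. Complex V had the lowest median log2 fold change (-0.67), with 16 of 18 tested members lower and none higher. Complex IV (11 of 13 lower, median -0.46), complex III (7 of 9 lower, -0.44), complex II (3 of 4 lower, -0.42) and complex I (27 of 37 lower, -0.38) lay closer together. Total-count scaling moved every one of these medians towards 0, to -0.46 for complex V and to between -0.24 and -0.17 for the other complexes. Such a shift is the same for every gene, so it cannot change the order of the complexes.

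Summed over its genes, complex V held 203019, 201825 and 201999 normalized counts in the DMSO libraries and 139677, 141126 and 137667 in the P3FI-90 libraries, 69.0% of the DMSO mean. Complex I held 97242, 95956 and 96144 in DMSO and 79604, 77423 and 76630 in P3FI-90, or 80.8%. Complex IV stood at 82.9%, complex III at 77.4% and complex II at 76.6% of their DMSO means. Libraries of the groups did not overlap in any of these 5 sums. Cycs, the gene of cytochrome c itself, stood apart at 104%. As a share of all counts on named genes, without any scaling factor, the members went from a mean of 1.17% to 1.02%.

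**Figure D2:**
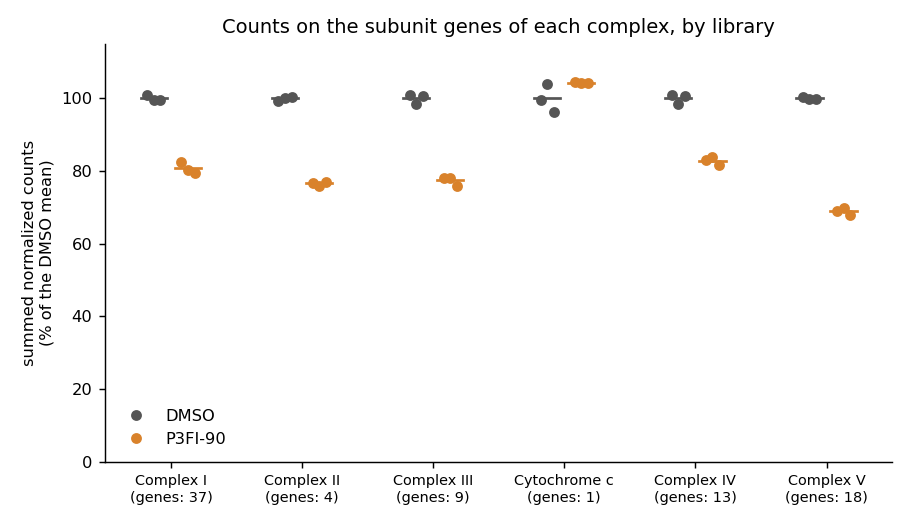
Summed normalized counts of the tested subunit genes of each complex as a percentage of the DMSO mean, by library (points), with group means (bars). P3FI-90 libraries lie at 69.0% for complex V and 76.6% to 82.9% for complexes I to IV, whereas the single cytochrome c gene is at 104%.

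Subunit transcripts are short, and across the whole data set the change depended on transcript length, so the members were also compared with genes of their own length. Among all tested genes, the median log2 fold change ran from -0.39 in the shortest 10%, which holds 57 of the 82 members, to 0.36 in the longest 10%. Of the 54 members with a median transcript under 1000 bases, 42 were lower (77.8%), compared with 58.9% of all genes that short, and their medians were alike (-0.44 and -0.42). Of the 28 members of at least 1000 bases, 22 were lower (78.6%), compared with 37.7% of all genes that long, with medians of -0.40 and 0.05. The gap narrowed again among abundant genes: of the non-members with at least 1000 normalized counts in DMSO, 74.2% of the short ones (median -0.51) and 46.8% of the long ones (median -0.06) were lower. After a smooth trend of the log2 fold change with transcript length and GC content was removed, the median of the members was -0.08, with 52 of 82 below 0, and the medians were -0.37 for complex II, -0.32 for complex V, -0.20 for complex III, -0.07 for complex I and -0.01 for complex IV, so that complex V no longer had the lowest. The decrease of short members was thus close to that of short genes at large, and the part of transcript length in the result was not tested further.

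**Figure D3:**
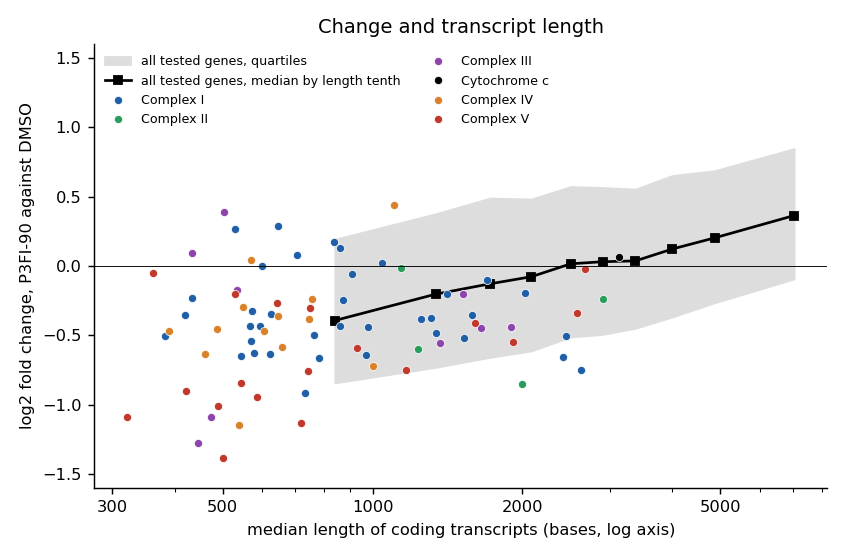
Log2 fold change, P3FI-90 against DMSO, and median length of coding transcripts (log axis) for the subunit genes (colored points) and for all tested genes in 10 bins of equal size by length (black squares, medians; gray, quartiles). The genome-wide median climbs from -0.39 in the shortest to 0.36 in the longest bin; the members scatter around it below about 1000 bases and lie mostly under it above, and total-count scaling would move points and squares up together.

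In complex I, 6 of the 7 core subunits encoded in the nucleus were lower (median -0.38). Ndufs1, the largest iron-sulfur subunit of the peripheral arm, stood at 6191, 6648 and 6669 normalized counts in DMSO and at 3834, 3825 and 3906 in P3FI-90. The groups were far apart, with a log2 fold change of -0.75 (SE 0.038, edgeR adjusted p = 2.68e-10). Ndufv1, which carries the flavin that accepts electrons from NADH, had 4780, 4957 and 4912 in DMSO and 3516, 3240 and 3446 in P3FI-90, a change of -0.52 (SE 0.041, edgeR adjusted p = 3.06e-08). Ndufs8, which holds iron-sulfur clusters next to the quinone site, gave -0.44 (SE 0.059), and Ndufv2, an iron-sulfur partner of Ndufv1, gave -0.38 (SE 0.046). In each of these genes all P3FI-90 libraries lay below all DMSO libraries.

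Smaller values were found for Ndufs7 and Ndufs3. Ndufs7, which helps to form the quinone site, was measured at 2042, 1760 and 1890 in DMSO and 1656, 1633 and 1511 in P3FI-90. Its decrease of -0.25 on the log2 scale (SE 0.062, edgeR adjusted p = 0.00215) was -0.03 and not called with total counts, and 0.20 with the length and GC trend removed. Ndufs3, a core subunit of the arm that leads to the quinone site, had 3045, 3105 and 3141 in DMSO and 3187, 3152 and 3098 in P3FI-90 and was not called (log2 fold change 0.02, SE 0.042), although with total counts it was higher by 0.24. Its libraries overlapped, and 39.7% of its transcript windows also occur in other genes, so part of its reads may belong elsewhere.

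Supernumerary subunits surround the core and stabilize it. Of the 30 tested by that list, 21 were lower and 2 higher, with a median of -0.41 close to that of the core. Ndufb10, a subunit of the membrane arm, had the lowest value in complex I, with 2324, 2202 and 2523 in DMSO and 1140, 1345 and 1248 in P3FI-90. It stood at 53.0% of the DMSO mean, without overlap between groups (log2 fold change -0.92, SE 0.068, edgeR adjusted p = 1.54e-08). Ndufc1, a small membrane subunit, gave 818, 817 and 821 in DMSO and 546, 513 and 492 in P3FI-90, a change of -0.66 (SE 0.076). The remaining decreases reached from -0.66 for Ndufb2 to -0.19 for Ndufa10, the latter above 0 and not called with total counts.

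Ndufv3 and Ndufa7, accessory subunits of the peripheral arm, went the other way. Ndufv3 rose from 1605, 1596 and 1569 in DMSO to 1888, 1957 and 1970 in P3FI-90, with all treated libraries higher (log2 fold change 0.29, SE 0.048, edgeR adjusted p = 7.81e-05). Ndufa7 had 2332, 1828 and 2111 in DMSO and 2718, 2654 and 2184 in P3FI-90, and here the groups overlapped, since the third P3FI-90 library lay below the first DMSO library. Its call (log2 fold change 0.27, SE 0.089, edgeR adjusted p = 0.0136) was lost without DMSO replicate 2 (0.18), without P3FI-90 replicate 1 (0.21) and without P3FI-90 replicate 2 (0.23).

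Besides Ndufs3, a further 7 complex I members were not called. Ndufs4 came closest, with 1923, 2043 and 1873 in DMSO and 1784, 1829 and 1829 in P3FI-90, and its libraries did not overlap although the difference was only -0.10 (SE 0.051, edgeR adjusted p = 0.0834). Ndufb9, a highly expressed subunit of the membrane arm, had 8749, 8946 and 8898 and 9931, 8813 and 9333 (0.08, SE 0.041), with overlap between the groups. Ndufa3 (-0.23, SE 0.14) and Ndufa12 (0.17, SE 0.15) were the least precise, the latter with 26.2% of its windows shared with other genes. Ndufb11, Ndufs5 and Ndufb1 gave -0.06, -0.003 and 0.13. With total counts, Ndufb9, Ndufa12, Ndufb11, Ndufs5 and Ndufb1 passed the threshold as higher. Single libraries also decided calls here: Ndufs4 passed as lower without DMSO replicate 3 (-0.13), Ndufa3 as lower without P3FI-90 replicate 1 (-0.39) and Ndufb9 as higher without P3FI-90 replicate 2 (0.12). Ndufb11b had no count in any library.

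Complex II is the one assembly encoded entirely in the nucleus, and it is also an enzyme of the citric acid cycle. Its genes divided: both membrane anchor subunits fell, and the catalytic subunits changed little or not at all. Sdhc, an anchor subunit, had 4838, 4791 and 5111 in DMSO and 2795, 2622 and 2766 in P3FI-90, and the treated libraries stood at 55.5% of the DMSO mean (log2 fold change -0.85, SE 0.043, edgeR adjusted p = 2.69e-10). Sdhd, the other anchor, went from 7055, 7109 and 6712 to 4453, 4570 and 4748, a change of -0.60 (SE 0.038, edgeR adjusted p = 3.1e-09). These were clear separations in every library.

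Sdha, the flavoprotein that oxidizes succinate, had 9247, 9535 and 9832 in DMSO and 8186, 7993 and 8028 in P3FI-90. It was lower by a smaller margin (-0.24, SE 0.034, edgeR adjusted p = 1.58e-05), which total-count scaling reduced to -0.03 without a call. Sdhb, the iron-sulfur subunit that carries electrons on from Sdha, had 4654, 4592 and 4442 in DMSO and 4526, 4558 and 4470 in P3FI-90. Its groups overlapped and it was not called (-0.01, SE 0.035, edgeR adjusted p = 0.721), while with total counts it was higher by 0.20 (edgeR adjusted p = 0.000125). The log2 ratio of Sdhc to Sdhb within a library, which no scaling changes, was 0.06, 0.06 and 0.20 in DMSO and -0.70, -0.80 and -0.69 in P3FI-90. This pair, like the pairs below, was picked after the values were seen, and its ratio is given without a test.

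Complex III held both some of the largest decreases and one of the few increases. Uqcr11, one of its smallest subunits, had 1348, 1197 and 1353 in DMSO and 569, 546 and 493 in P3FI-90, 41.2% of the DMSO mean. Uqcrh, the acidic hinge protein that assists the docking of cytochrome c, had 3316, 3404 and 3394 and 1605, 1542 and 1600. Both genes separated the groups without overlap, with log2 fold changes of -1.28 (SE 0.078, edgeR adjusted p = 2e-09) and -1.09 (SE 0.047, edgeR adjusted p = 4.3e-11). With the length and GC trend removed the values were -0.57 and -0.61, still below 0.

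The catalytic and core subunits lay between. Uqcrfs1, the Rieske iron-sulfur protein, had 5626, 5804 and 5828 in DMSO and 3904, 3829 and 3980 in P3FI-90 (-0.56, SE 0.035, edgeR adjusted p = 2.65e-09). The core proteins Uqcrc1 and Uqcrc2, which lie on the matrix side, moved almost identically, by -0.45 and -0.44 (SE 0.034 each). Cyc1, the heme protein cytochrome c1, had 6109, 5953 and 5960 in DMSO and 5253, 5297 and 5110 in P3FI-90. Its decrease was small (-0.20, SE 0.034, edgeR adjusted p = 8.11e-05) and turned to 0.01 with total counts and to 0.03 with the length and GC trend removed.

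Uqcrq, a small membrane subunit, rose, from 2855, 2771 and 2792 in DMSO to 3639, 3945 and 3434 in P3FI-90. Every treated library exceeded every DMSO library (log2 fold change 0.39, SE 0.052, edgeR adjusted p = 8.59e-06), and the increase was 0.86 with the length and GC trend removed. Within single libraries the log2 ratio of Uqcrh to Uqcrq went from 0.22, 0.30 and 0.28 in DMSO to -1.18, -1.36 and -1.10 in P3FI-90, and that of Uqcr11 to Uqcr10 from -0.58, -0.62 and -0.60 to -1.97, -1.97 and -1.99. Uqcr10 itself was not called, at 2019, 1844 and 2051 in DMSO and 2231, 2136 and 1957 in P3FI-90 (0.10, SE 0.061). Uqcrb, a quinone-site subunit with 2047, 1758 and 2108 and 1901, 1606 and 1730, was at the edge of the threshold (-0.18, edgeR adjusted p = 0.0418): its libraries overlapped, 43.4% of its windows are shared with other genes, and its call was lost without DMSO replicate 1 (-0.15), DMSO replicate 3 (-0.13), P3FI-90 replicate 2 (-0.12) or P3FI-90 replicate 3 (-0.17), and with total counts its value was 0.04.

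Cytochrome c, the mobile carrier between complexes III and IV, is encoded in somatic cells by Cycs. It had 5714, 5964 and 5517 normalized counts in DMSO and 5984, 5971 and 5974 in P3FI-90. The treated libraries all lay marginally above the DMSO libraries, but the difference of 0.06 (SE 0.037, edgeR adjusted p = 0.144) was not called, whereas with total counts it was 0.28 and called higher. Processed pseudogenes resemble this gene, and 28.5% of its transcript windows are shared with other genes.

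**Figure D4:**
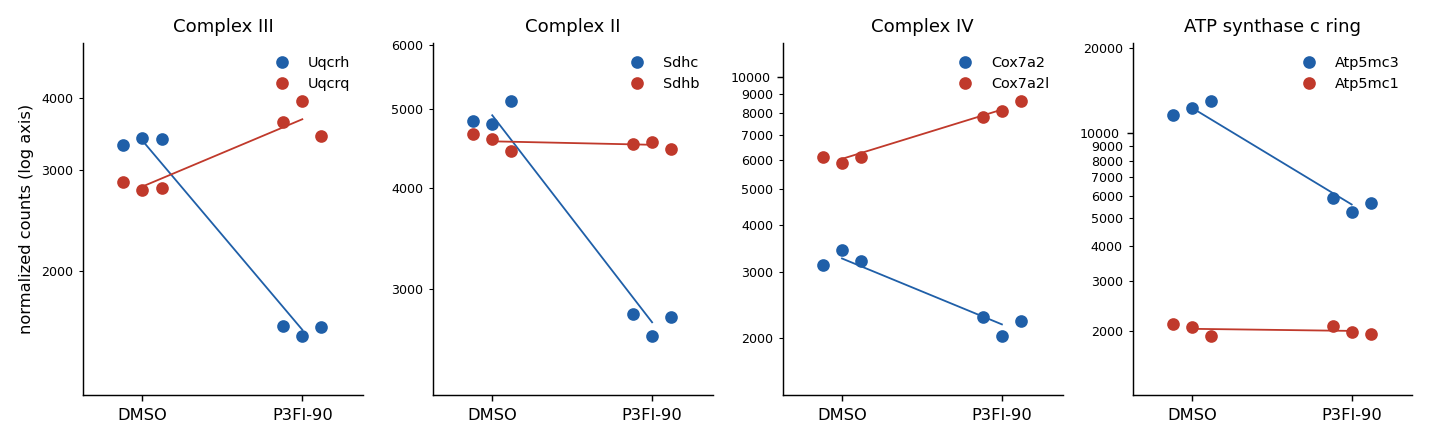
Normalized counts by library (log axis; points, libraries; lines join group means) of 4 pairs of subunit genes that belong to the same assembly. In each pair one gene fell (Uqcrh, Sdhc, Cox7a2, Atp5mc3) while its partner rose (Uqcrq, Cox7a2l) or was not called (Sdhb, Atp5mc1; both above 0 and called higher with total counts).

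In complex IV, 10 of the 11 widely expressed subunits were lower, with a median of -0.46. Cox7c, a small membrane subunit, had 2268, 2227 and 2232 in DMSO and 1054, 1018 and 971 in P3FI-90, which was 45.2% of the DMSO mean (log2 fold change -1.14, SE 0.052, edgeR adjusted p = 7.41e-11). Cox7b, another small membrane subunit, went from 3980, 3611 and 3807 to 2337, 2390 and 2199 (-0.72, SE 0.051), and Ndufa4, named for complex I but counted here as a subunit of complex IV, from 5339, 5380 and 5186 to 3428, 3373 and 3418 (-0.64, SE 0.036). None of these 3 overlapped between groups. With complex I instead, Ndufa4 would have made 28 of 38 members lower there. Of the Cox7c windows, 23.0% occur in other genes.

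The other widely expressed subunits had smaller decreases or none. Cox4i1, the most highly expressed nuclear-encoded complex IV gene per length (609 RPKM in DMSO and 515 in P3FI-90), had 16216, 15901 and 16256 and 13714, 13975 and 13235 normalized counts. Cox8a, the widely expressed form of the smallest subunit, had 7502, 6968 and 7504 and 5954, 6360 and 5613. Their log2 fold changes of -0.24 (SE 0.032, edgeR adjusted p = 7.32e-06) and -0.29 (SE 0.047, edgeR adjusted p = 4.96e-05) were not called with total counts (-0.03 and -0.08) and were above 0 with the length and GC trend removed (0.23 and 0.32). Cox6b1, which faces the intermembrane space, gave -0.46 (SE 0.044), or 0.06 without that trend. Cox5a, Cox5b and Cox6c gave -0.36, -0.39 and -0.47. Cox5b-ps, a pseudogene row that the symbol rule takes, shares 61.9% of its windows with Cox5b and gave -0.47.

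Complex IV subunits occur in families with forms for particular tissues, and in 4T1 cells the forms known from particular tissues were at or near 0. Cox6a1 was the only widely expressed subunit not called, at 5979, 5541 and 5872 in DMSO and 5930, 6435 and 5591 in P3FI-90 (0.05, SE 0.049, edgeR adjusted p = 0.4), and was higher by 0.26 with total counts. Its heart and muscle form, Cox6a2, had 5, 0 and 0 raw counts in DMSO and 9, 11 and 8 in P3FI-90, too few to be tested. Cox7a1, the muscle form of Cox7a, had 10, 4 and 10 raw counts in DMSO and 2, 4 and 4 in P3FI-90. Cox4i2 and Ndufa4l2, forms known for their expression under low oxygen, had 2 and 5 counts in a single P3FI-90 library each and none in DMSO. Cox6b2, Cox7b2, Cox8b and Cox8c were at 0 in all 6 libraries, which allows up to 3 counts in each.

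The Cox7a family moved in both directions. Cox7a2, the form built into complex IV in most tissues, fell from 3136, 3438 and 3204 in DMSO to 2274, 2019 and 2222 in P3FI-90 (-0.59, SE 0.056, edgeR adjusted p = 2.69e-07). Cox7a2l, a related protein that joins complex IV to complex III in supercomplexes, rose from 6109, 5862 and 6101 to 7819, 8082 and 8585 (0.44, SE 0.04, edgeR adjusted p = 1.51e-07). The groups did not overlap for either gene, and both calls held with each scaling tried. Their log2 ratio within a library, Cox7a2 to Cox7a2l, went from -0.96, -0.77 and -0.93 to -1.78, -2.0 and -1.95. Cox7a2l shares 17.8% of its windows with other genes.

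Complex V showed the broadest decrease. In the catalytic head, F1, all 5 subunits were lower. Atp5f1b, the catalytic beta subunit and the most highly expressed member per length (1081 RPKM in DMSO, 740 in P3FI-90), had 73425, 71989 and 72496 normalized counts in DMSO and 49630, 50666 and 48893 in P3FI-90 (-0.55, SE 0.024, edgeR adjusted p = 6.15e-11). Atp5f1a, the alpha subunit that alternates with beta, had 41551, 41212 and 41270 and 32166, 32704 and 32902 (-0.34, SE 0.025). Atp5f1c, the rotating gamma shaft, had 17182, 17947 and 17884 and 10931, 10346 and 10190 (-0.75, SE 0.035). The small shaft subunits Atp5f1d and Atp5f1e gave -0.59 and -0.90. The groups did not overlap for any F1 gene.

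The c ring, the rotor in the membrane that protons drive, is made of an identical protein encoded by 3 genes that differ in their import sequences. Atp5mc3 fell from 11634, 12333 and 12967 in DMSO to 5888, 5259 and 5658 in P3FI-90 (-1.14, SE 0.048, edgeR adjusted p = 3.52e-11), and Atp5mc2 from 5505, 5381 and 5484 to 2743, 3112 and 2638 (-0.95, SE 0.053, edgeR adjusted p = 7.81e-10). Atp5mc1 had 2122, 2068 and 1917 and 2074, 1978 and 1951 and was not called (-0.02, SE 0.054, edgeR adjusted p = 0.687), though with total counts it was higher by 0.19 (edgeR adjusted p = 0.00482). Summed over the 3 genes, normalized counts were 19261, 19782 and 20367 in DMSO and 10705, 10349 and 10248 in P3FI-90. Per length, Atp5mc1 made up 3.01%, 2.85% and 2.55% of the c-ring transcripts in DMSO libraries and 5.68%, 5.53% and 5.56% in P3FI-90 libraries, so the minor gene gained share without a called change of its own. Atp5mc2 shares 87.4% of its windows with other genes, chiefly copies of itself, and its split is uncertain.

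Atp5if1, the inhibitor that blocks ATP hydrolysis by the enzyme, had the lowest log2 fold change of all members. It had 2649, 2430 and 2600 normalized counts in DMSO and 975, 1034 and 929 in P3FI-90, 38.3% of the DMSO mean, with wide separation (-1.39, SE 0.057, edgeR adjusted p = 2.94e-11). Against Atp5f1b in the same library it fell further, from log2 ratios of -4.79, -4.89 and -4.80 to -5.67, -5.62 and -5.72. An antisense gene overlaps Atp5if1 and 30.3% of its windows are shared, so without strand information its reads cannot be assigned with certainty.

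Among the membrane and dimer subunits, which shape the inner membrane folds, 4 of 5 were lower. Atp5me had 406, 389 and 450 in DMSO and 238, 204 and 144 in P3FI-90, the lowest counts and the widest error in the complex (-1.09, SE 0.16, edgeR adjusted p = 2.42e-05). Atp5mj, a small proteolipid, gave 1822, 1745 and 1897 and 943, 854 and 923 (-1.01, SE 0.06). Atp5mg and Atp5mf gave -0.85 and -0.30, and for Atp5mg 84.8% of the windows are shared. Atp5mk was not called, at 1568, 1581 and 1421 and 1465, 1466 and 1480 (-0.05, SE 0.056), and passed as higher with total counts.

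The peripheral stalk, which holds the head still against the rotor, had 4 of 4 subunits lower but with the smallest median of the complex, -0.34. Atp5pf gave -0.76 (SE 0.057) and Atp5pb, the long stalk helix, -0.41 (SE 0.034). Atp5pd had 4701, 4689 and 4272 in DMSO and 3704, 3872 and 3783 in P3FI-90 (-0.27, SE 0.044, edgeR adjusted p = 6.99e-05). Atp5po, which joins the stalk to the head, had 7126, 6868 and 6856 and 5916, 6409 and 5773 (-0.20, SE 0.042, edgeR adjusted p = 0.000455). The latter pair lost the call with total counts, at -0.05 and 0.01, and lay above 0 with the length and GC trend removed, at 0.10 and 0.27. Atp5po overlaps Donson on the same strand and shares 89.8% of its windows, and Atp5pf overlaps Gabpa on the opposite strand.

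Since reads in windows common to several genes could belong to either, the counts were repeated without the members that had at least 10% shared windows. Of the 53 tested members left, 45 were lower and 3 higher, with a median of -0.47. Of the 28 with shared windows, 19 were lower and 1 higher, with a median of -0.35.

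Promoters of respiratory genes often hold sites for NRF1, for ETS factors such as GABP, for YY1 and for estrogen-related receptors. RefSeq start sites were matched by gene identifier for 71 of the 91 members, 66 of them tested. Windows from 250 bases before to 50 bases after the start were searched on both strands in the GRCm38.p6 reference. The NRF1 core GCATGCGC was found in 16.7% of the 66 tested members and in 3.05% of 27025 genes with a window. The latter set holds genes whether or not they were expressed highly enough to be tested here. The 2 sets are therefore unlike, for this and the following elements. The ETS element CCGGAAG was found in 25.8% against 9.93%, the YY1 element AAGATGGC in 15.2% against 3.19%, the ERR element TCAAGGTCA in 3.03% against 0.466%, the CRE TGACGTCA in 7.58% against 2.03% and the E box CACGTG in 10.6% against 8.09%. Within the members, median log2 fold changes were -0.50 with and -0.43 without the NRF1 core, -0.54 and -0.43 for the ETS element, and -0.36 and -0.48 for YY1. A match of letters is a description of the sequence and not a site shown to be bound.

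The 150 bases before the start of 6 members are printed 5′ to 3′ on the strand of the gene, from RefSeq and GRCm38.p6. They were chosen to show strongly reduced members with an NRF1 core, an ERR or an ETS element beside an uncalled member with the same NRF1 core and a higher member with none of the 6 elements. Capitals mark every match to the 6 elements within these bases, on either strand, and overlapping matches run together.
Atp5mc2 (NRF1 core in both orientations; chr15:102671048-102671197, minus strand): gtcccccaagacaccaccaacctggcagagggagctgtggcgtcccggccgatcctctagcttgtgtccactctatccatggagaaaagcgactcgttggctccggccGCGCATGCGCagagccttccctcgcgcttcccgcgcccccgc
Atp5me (NRF1 core in both orientations; chr5:108434400-108434549, minus strand): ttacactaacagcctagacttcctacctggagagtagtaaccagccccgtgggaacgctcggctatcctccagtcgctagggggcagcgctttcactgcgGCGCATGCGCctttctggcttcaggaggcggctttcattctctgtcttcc
Sdhb (NRF1 core, not called; chr4:140961121-140961270, plus strand): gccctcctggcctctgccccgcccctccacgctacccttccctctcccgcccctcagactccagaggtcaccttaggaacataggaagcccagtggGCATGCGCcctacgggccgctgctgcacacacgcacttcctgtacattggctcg
Atp5mc3 (ERR element, reverse strand; chr2:73911327-73911476, minus strand): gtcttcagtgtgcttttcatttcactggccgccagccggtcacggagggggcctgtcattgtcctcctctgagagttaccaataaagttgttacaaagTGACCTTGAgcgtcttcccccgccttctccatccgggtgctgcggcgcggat
Uqcrh (ETS element, reverse strand; chr4:116075071-116075220, minus strand): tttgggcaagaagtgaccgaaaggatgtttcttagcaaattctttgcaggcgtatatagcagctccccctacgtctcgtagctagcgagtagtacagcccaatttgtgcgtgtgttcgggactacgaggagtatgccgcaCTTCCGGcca
Ndufv3 (no element, higher; chr17:31519965-31520114, plus strand): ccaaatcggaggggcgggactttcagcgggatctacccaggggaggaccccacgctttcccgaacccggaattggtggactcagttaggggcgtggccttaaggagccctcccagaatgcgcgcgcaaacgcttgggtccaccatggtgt

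Atp5mc2, Atp5me and Ndufa11, with log2 fold changes of -0.95, -1.09 and -0.65, carry the palindromic form of the NRF1 core. Within the same stretch before the start, Sdhb (-0.01), Cycs (0.06), Ndufa6 (-0.50) and Ndufa8 (-0.43) carry the core once. The remaining members with this core have it outside that stretch. Whether the form of the core goes with the size of the change was not tested. Of the 11 tested members with this core, 8 were lower, and of the 55 without it, 43 were lower.

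The other genes of mitochondrial energy metabolism were examined from lists. All 13 protein-coding genes of mitochondrial DNA were lower, against 39.4% of all tested genes, with a median of -0.84. Their summed normalized counts were 1389797, 1415011 and 1331056 in DMSO and 901856, 928546 and 915294 in P3FI-90. The lowest were mt-Nd3, a complex I subunit (-1.43), and mt-Co2, a catalytic subunit of complex IV (-1.28). The smallest decreases were those of mt-Co1 (-0.27), another catalytic subunit of complex IV, and mt-Nd2 (-0.21), of complex I, which with total counts were -0.05 and 0.01 and not called.

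Assembly factors build the complexes without staying in them and did not share the pattern of the subunits. Of 57 tested factors, 27 were lower (47.4%, against 39.4% of all tested genes) and 19 higher (33.3%, against 39.9%), with a median of -0.14. Their transcripts are also longer and less abundant, with medians of 1468 bases and 14.9 RPKM in DMSO, against 743.5 and 110 for the members. The part of length and abundance in this contrast was not tested. Ndufaf3, needed for an early step of complex I assembly, gave -1.96, and Uqcc6, a small complex III factor, -1.50. Tmem126b, an assembly factor for the membrane arm of complex I, gave 1.00, and Sco1, which delivers copper to complex IV, 0.92, all with edgeR adjusted p under 0.05.

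**Figure D5:**
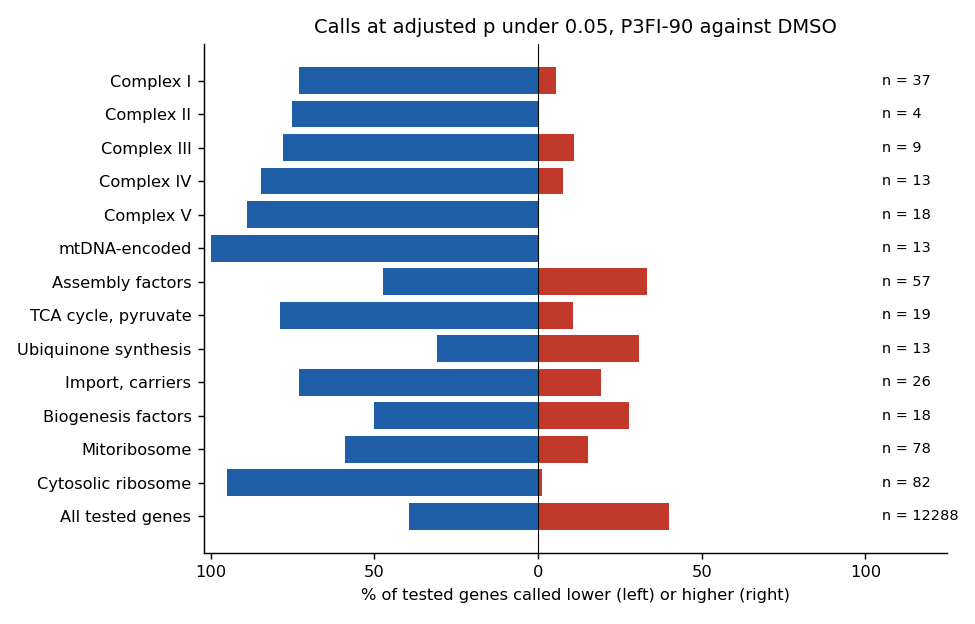
Percentage of tested genes called lower (left, blue) or higher (right, red) at an edgeR adjusted p under 0.05 in each complex, in the other lists of mitochondrial genes, in cytosolic ribosomal proteins and among all tested genes. Complexes I to V have 73.0% to 88.9% lower, against 39.4% of all genes and 47.4% of assembly factors; total-count scaling lowers the left bars and lengthens the right ones, with 29.6% and 50.3% for all genes.

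Enzymes of the citric acid cycle and pyruvate oxidation went with the subunits, with 15 of 19 lower, 2 higher and a median of -0.48. These shares were 78.9% and 10.5%, against 39.4% and 39.9% of all tested genes. Idh2, the mitochondrial NADP-dependent isocitrate dehydrogenase, gave -1.80 and Fh1, fumarate hydratase, -1.18. Pcx, pyruvate carboxylase, gave 1.49 and Pdhb, a subunit of pyruvate dehydrogenase, 0.24. Import proteins and carriers had 19 of 26 lower (73.1%) and 5 higher (19.2%). Slc25a5 (-1.75), which exchanges ADP and ATP, and Vdac1 (-1.63), the main channel of the outer membrane, were among the lower ones. The import proteins Timm22 (1.08) and Timm10 (0.39) were among the higher ones. The Timm10 call was lost without DMSO replicate 1 (0.26), DMSO replicate 3 (0.37) or P3FI-90 replicate 1 (0.33). In ubiquinone synthesis 4 of 13 genes were lower, among them Coq3 (-1.64) and Coq7 (-1.38), and 4 were higher, among them Coq9 (1.18) and Coq10b (0.76). Each share, 30.8%, was below that of all tested genes.

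A further list held transcription factors and coactivators known for controlling respiratory genes, together with proteins that copy or transcribe mitochondrial DNA, such as Polg and Polrmt. Of its 18 tested genes, 9 were lower, 5 were higher and the rest were not called, with a median of -0.08. These values describe the mixed list and were not computed for the transcription factors and coactivators alone. Nrf1 had 1846, 2093 and 2201 normalized counts in DMSO and 1135, 1263 and 1178 in P3FI-90 (log2 fold change -0.78). Tfam, which packages and transcribes mitochondrial DNA, had 2704, 2723 and 2389 and 1680, 1540 and 1720 (-0.66). Both separated the groups without overlap. Gabpa gave -0.42, the coactivator Pprc1 -0.34, Tefm, an elongation factor of mitochondrial transcription, -0.78, and Esrra -0.23, which with total counts was -0.01 and not called. Gabpb2, a partner of Gabpa, gave 0.85 and Mterf1a, a mitochondrial termination factor, 0.55. Ppargc1b was not called (0.08), and Ppargc1a was nearly undetected, with 0 counts in every DMSO library and 5, 0 and 4 in P3FI-90.

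Ribosomal proteins were taken as gene groups of other function for comparison. Members had a median of 743.5 bases and 110 RPKM in DMSO. Transcripts of cytosolic ribosomal proteins are likewise short and abundant, with medians of 775.8 bases and 798 RPKM. Those of mitochondrial ribosomal proteins are longer and less abundant, with medians of 1224 bases and 37.8 RPKM. Cytosolic ribosomal proteins were lower in 78 of 82 cases (95.1%, against 39.4% of all tested genes) with a median of -0.75. Mitochondrial ribosomal proteins were lower in 46 of 78 (59.0%) with a median of -0.40. The subunits of oxidative phosphorylation, with 64 of 82 and -0.43, lay between them in the share called lower, and these differences were not tested.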

How the data were processed

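Total RNA of 4T1 cells (3 DMSO and 3 P3FI-90 libraries) was made into mRNA libraries and sequenced on a NovaSeq by the study. The authors deposited one table of whole-number read counts per gene, without normalization. The submitters' processing notes name CASAVA, HISAT2, StringTie and the GRCm39 build without saying what each did. The annotation, the counting step and the strandedness are not given in the sources used here. Genes with a count of 2 outnumbered those with a count of 1 in each library, so both mates of a pair may have been counted.

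The table holds 22401 rows. The 296 rows that carry an identifier of a transcript instead of a gene name (0.483% to 0.556% of the counts of a library) were left out. Groups and replicates were taken from the sample labels. Genes were filtered with filterByExpr, scaled by TMM (factors 0.927 to 1.08) and tested with edgeR's quasi-likelihood test over 12288 genes, with Benjamini-Hochberg adjustment and a threshold of 0.05 (R 4.3.3, edgeR 4.0.16). The study's methods name limma, which was run as an alternative. To give normalized counts, each library was brought to the average effective size of all 6. The common biological coefficient of variation was 0.0648. Levels compared between genes are RPKM from these counts and the median length of coding transcripts in GENCODE M21, a GRCm38 annotation that holds 21995 of the identifiers and also gave GC content, overlapping exons and the share of 50-base transcript windows found in other genes. No library was a copy of another, since the chi-square per gene within a group was 5.44 to 8.43. The test was checked on simulated counts with known changes in a small part of the genes, up and down about equally, and a common dispersion. That check does not cover data in which most genes differ, as here.

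The members and the gene lists were chosen with earlier results of these data known, and lists are given by counts and medians only. Named by rule were Cyc1, Cycs, the Sdh genes, the core subunits of complex I, the isoform families and 7 regulators. So were the 3 lowest and 2 highest called members of complexes I, III, IV and V. The 2 lowest and 2 highest called genes of each further list were also named. By the same rule, members not called were to be added only if there were at most 10, and there were 14. A gene under this rule is not reported here by name or drawn in the plot of single members, but is kept in all counts. Other members, including members not called such as Ndufb9 and Uqcr10, are named with values chosen after these were seen. Alternatives were DESeq2 size factors, total counts and upper quartiles, DESeq2 1.42.0, limma 3.58.1 with voom or on log2(CPM + 1), no filter beyond a single count or a minimum of 10 counts per library, the replicate number as a block, each library left out, transcript rows kept, counts halved, Ndufa4 and Ndufa4l2 counted with complex I, members with at least 10% shared windows left out, and the trend with transcript length and GC content (natural splines with 4 degrees of freedom, 12263 genes with values) removed. Promoter windows came from the RefSeq table of GRCm38.p6, a build other than that of the counts, and no other coordinates are given.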

Additional observations from a re-analysis of the deposited data

Results flagged for a closer look

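Cox6a2, the heart and muscle form of a complex IV subunit, lay below the filter on low counts and was in no comparison, yet it had counts in every P3FI-90 library. Its raw counts were 5, 0 and 0 in DMSO and 9, 11 and 8 in P3FI-90, and the P3FI-90 mean was 8.72 normalized counts, above the level in the DMSO libraries. Its exons overlap those of Itgad on the opposite strand, and counting without strand cannot tell these genes apart.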

How the results depend on the processing

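The 64 lower and 4 higher calls all remained with upper quartiles (which also called Ndufs4 lower, -0.14), no filter, limma-voom, limma on log2(CPM + 1), transcript rows kept and counts halved. The replicate numbers do not pair the libraries (correlations of equally numbered libraries -0.0214, 0.015 and 0.00491), and the fit with the replicate block gave 64 lower and 4 higher, the same calls. With DESeq2 size factors, at least 10 counts in every library, or DESeq2, 63 of the lower calls and the 4 higher calls remained and Uqcrb lost its call, and the latter alternatives also called Ndufb9 higher (0.10 and 0.09). Leaving out each library in turn, members called lower numbered 63 to 65 and called higher 3 to 4, with a median log2 fold change of -0.44 to -0.43. Only total counts changed many calls, to 49 lower and 16 higher, with a members' median of -0.22 against 0.23 for all genes. The median of the members was -0.47 with upper quartiles, -0.41 with limma on log2(CPM + 1), -0.47 without members with shared windows and -0.083 with the length and GC trend removed, a value with no test. Of the 71 members below 0, 11 turned with total counts and 20 with the length and GC trend removed, where Cycs also turned below 0 (-0.06). Among the genes named by rule, directions turned with total counts for Atp5mc1 (0.19), Atp5po (0.01), Cyc1 (0.012), Sdhb (0.20), Uqcrb (0.037) and mt-Nd2 (0.008), and with the length and GC trend removed for Atp5pd (0.10), Atp5po (0.27), Cox4i1 (0.23), Cox6b1 (0.059), Cox8a (0.32), Cyc1 (0.027), Ndufs7 (0.20), Sdhb (0.27) and Uqcrb (0.20). Total counts shift all genes alike, which takes values just below 0 past it. What underlies the length and GC trend was not tested. Unstated strandedness limits members with antisense overlaps, and shared windows limit those with copies.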
